A study of Mus musculus with 25 samples.

Results

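The Fc gamma receptor genes were the 6 rows of the gene count table, of 55450, whose symbol was Fcgr1, Fcgr3, Fcgr4, Fcer1g, Fcgr2b or Fcgrt. All 6 were found and all 6 passed the low-count filter, and the question was how activating and inhibitory receptors stood to each other. RNA came from 25 melanomas of the mouse line B2905, also called M4, grown in C57BL/6 mice that received antibody at 10 mg/kg. The 5 controls had received isotype control IgG2b, and the other tumours had received anti-CTLA-4, an antibody against a receptor that restrains T cells. Those 20 tumours were labelled by their later change in size as 6 non-responders that grew, 6 stable tumours and 8 responders that shrank. Each library was 1 tumour of 1 implanted line, the age of the mice is not given in the sources used here, and replicates were numbered in record order. The outcome labels were assigned over 10 to 11 days after the last dose.

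Fc gamma receptors bind the constant part of IgG and are found mainly on macrophages, monocytes, neutrophils, NK cells and B cells. Fcgr1, Fcgr3 and Fcgr4 encode the ligand-binding chains of activating receptors. These chains signal through the common gamma chain, encoded by Fcer1g, which carries an activation motif (ITAM) that recruits the kinase SYK. Fcgr2b encodes the inhibitory receptor, whose own inhibitory motif (ITIM) recruits the phosphatase SHIP1. When both kinds bind the same immune complex on a cell, the inhibitory receptor raises the threshold for phagocytosis and killing. Fcgrt encodes the neonatal Fc receptor, a relative of MHC class I that rescues IgG from degradation inside cells and does not signal in this way. In mice, antibodies against CTLA-4 are known to engage activating Fc receptors on myeloid cells of the tumour.

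Of the 6 genes, 4 lie near each other on chromosome 1 (GRCm38, GENCODE release 21). Fcgr2b (ENSMUSG00000026656.15) was at chr1:170958617-170976547 on the minus strand and Fcgr4 (ENSMUSG00000059089.4) at chr1:171018920-171029761 on the plus strand. Fcgr3 (ENSMUSG00000059498.13) followed at chr1:171051174-171064935 and Fcer1g (ENSMUSG00000058715.11) at chr1:171229572-171234365, both on the minus strand. Fcgr1 (ENSMUSG00000015947.10) was at chr3:96282909-96293969 and Fcgrt (ENSMUSG00000003420.8) at chr7:45092990-45103851, both on the minus strand. Fcgr2b and Fcgr3 shared 166 stretches of 50 bases, which were 9.58% of those of Fcgr3 and 2.92% of those of Fcgr2b, and no other pair of the 6 shared any. Their estimated counts were fractional in all 25 tumours while their sum was whole, to within 0.01, in all 25. The division of reads between them is therefore partly an estimate. Level differences of their summed counts are given as a form that does not need it. A ratio over their summed RPKM depends on it only through gene length, whereas single ratios to Fcgr2b do need it.

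Promoter sequence is shown for Fcgr1 and Fcgr4, which each held an interferon-type motif, though of different patterns. Their levels were alike over the tumours (Pearson r 0.940), but those of Fcgr3 and Fcer1g, which held neither motif, were more so (0.977). The lines read 5′ to 3′ on the gene's strand and come from RefSeq (GRCm38.p6). Fcgr1 is chr3:96293970-96294119 on the minus strand, bases -150 to -1 before the start. Fcgr4 is chr1:171018770-171018919 on the plus strand, bases -156 to -7. Capitals mark motif matches.
Fcgr1: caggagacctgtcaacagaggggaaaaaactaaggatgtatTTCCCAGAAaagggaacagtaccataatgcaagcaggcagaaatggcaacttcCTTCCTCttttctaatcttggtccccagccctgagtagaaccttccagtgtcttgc
Fcgr4: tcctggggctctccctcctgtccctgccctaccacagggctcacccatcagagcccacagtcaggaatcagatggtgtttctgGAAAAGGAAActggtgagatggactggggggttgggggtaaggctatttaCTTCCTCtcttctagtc
The first match in Fcgr1 is to the palindromic element TTCNNNGAA, at bases -109 to -101. The first match in Fcgr4 is to the interferon-stimulated pattern, GAAA followed by any 2 bases and GAAA, at bases -73 to -64. The other capitals in both are GAGGAAG on the opposite strand, the core bound by PU.1 and other Ets factors, at -56 to -50 in Fcgr1 and -23 to -17 in Fcgr4. Fcgr3 held that core at -7 to -1, and these 3 patterns, sought on both strands in the 250 bases before each start, did not occur in the windows of Fcgr2b, Fcer1g and Fcgrt. In the window of Fcgr2b 203 of the 250 bases lay in annotated exons, so the absence there says little about its promoter. Among 32851 promoter windows of that length, 7.02% held the palindromic element, 2.98% the interferon-stimulated pattern and 10.6% the Ets-type core. A match is a description of letters and no evidence of binding.

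The libraries held 8.76 to 34.3 M counts. The protein-coding share of counts was 87.4 ± 0.842% in controls (SD, n = 5), 86.1 ± 1.97% among non-responders (n = 6), 86.2 ± 1.86% among stable tumours (n = 6) and 63.9 ± 18.8% in responders (n = 8). In responders 1 to 4 and 6 to 8 the share was 23.8 to 74.3%, below every other library, while responder 5 stood at 87.0%. This composition moves with the responder group, so the tests of the 6 genes, their ratios and the gene lists were also run with the share as a covariate. Mitochondrial rRNA took 0.845 ± 0.176% of counts in controls and 0.930 ± 0.0974% among non-responders, but 2.87 ± 2.23% among stable tumours and 5.42 ± 3.95% in responders (SD), with up to 14.3% in 1 responder library. Responder 1 had a TMM factor of 0.339. The part of mitochondrial rRNA in the results was not tested. The numbers that open the library names ran by group. The labels do not say what they stand for, and if they are an order of processing, it cannot be told apart from group.

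Differences between groups in the level of each gene were tested with edgeR's quasi-likelihood test with Benjamini-Hochberg adjustment over 18031 genes, and a gene is called changed under an adjusted p of 0.05. Levels are in CPM, counts per M counts of the TMM-scaled library, except where genes are compared with each other, which was done in the authors' RPKM, a value per kilobase. In bulk tumour RNA, fewer cells of a type and less RNA per cell cannot be told apart. The labels give each library its own tumour number, so p-values describe the spread between tumours. How many of all genes separate 2 groups without overlap was not counted, so statements of overlap describe values and are not read as particular to these genes.

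**Figure D1:**
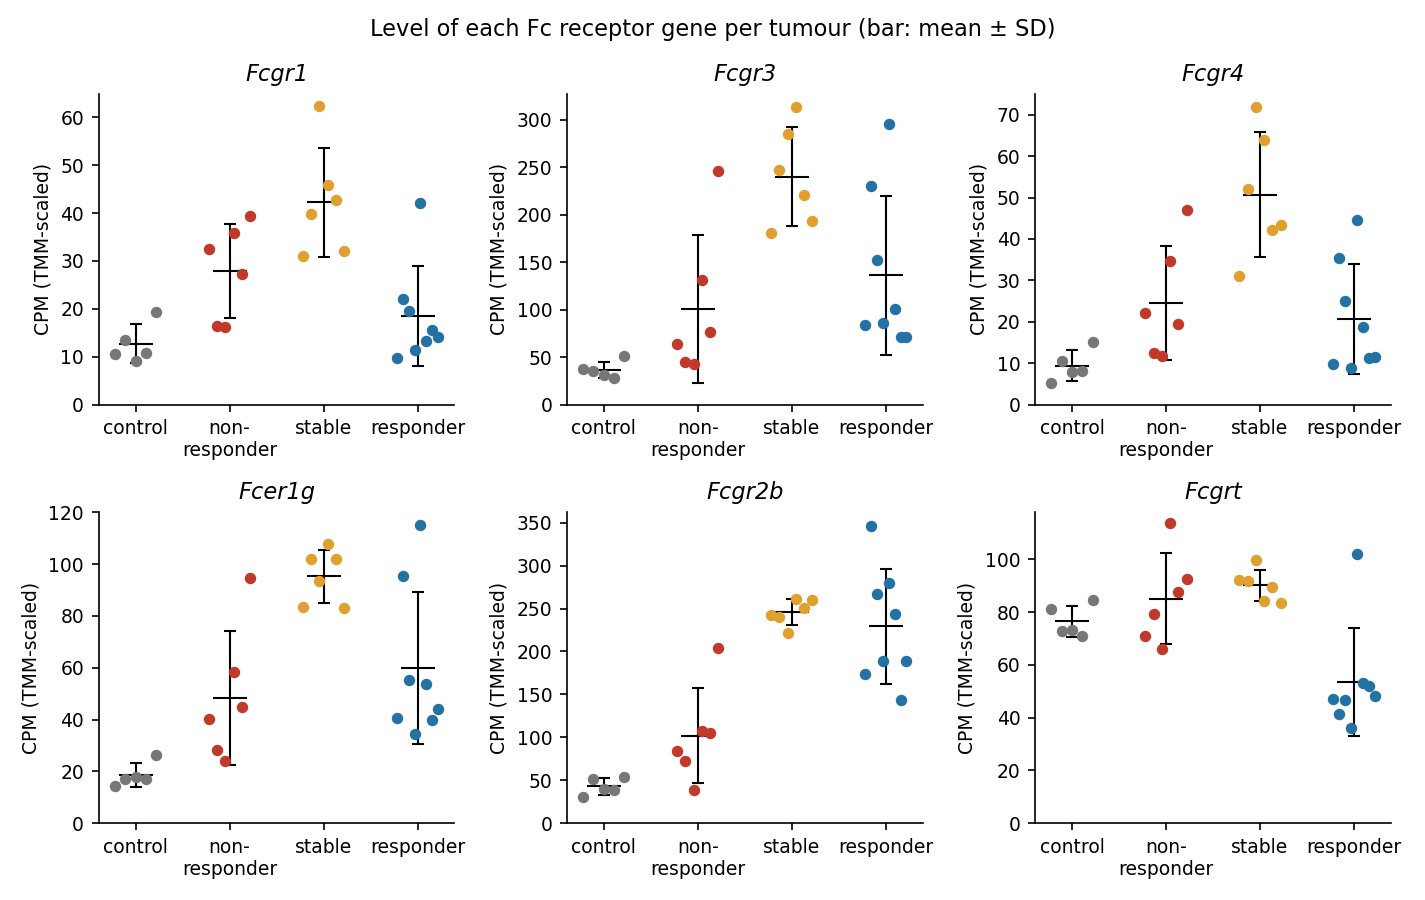
Level of each of the 6 genes (CPM, linear axis from 0) in every tumour by group, with the mean and SD as bars. Fcgr2b spans 143 to 347 CPM in responders and 222 to 262 CPM in stable tumours, whereas the Fcgr1 and Fcgr4 points of most responders lie below those of stable tumours.

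Against controls, the 3 activating chains, the shared gamma chain and the inhibitory receptor were all higher in both non-responders and stable tumours. Per length, Fcgr3 and Fcgr2b were the most abundant of the 4 IgG receptors in all groups, with 20.5 ± 4.93 and 16.0 ± 3.43 RPKM in controls against 5.45 ± 2.31 for Fcgr4 and 3.97 ± 1.26 for Fcgr1 (SD, n = 5). In stable tumours the same genes stood at 129 ± 23.8, 91.4 ± 7.63, 27.9 ± 7.21 and 12.6 ± 2.95 RPKM (SD, n = 6). In responders Fcgr2b, at 85.9 ± 23.9 RPKM, was level with Fcgr3, at 80.8 ± 43.5 RPKM, and above Fcgr4, at 12.6 ± 7.30 RPKM, and Fcgr1, at 6.24 ± 2.98 RPKM (SD, n = 8). The place of Fcgr2b in this order depends on the length used for it. Its annotated exons hold 5790 bases, against 1736 for Fcgr3.

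Fcgr1 encodes the high-affinity receptor for IgG2a and IgG2c. In controls its CPM was 10.6, 13.6, 9.04, 10.9 and 19.3 in tumours 1 to 5. Its lowest, median and highest CPM were 16.1, 29.9 and 39.4 among non-responders and 31.0, 41.2 and 62.3 in stable tumours. In responders they were 9.82, 14.9 and 42.2. Every stable tumour lay above every control, 4 of 6 non-responders did, and 3 of 8 responders did. Responder 5 held the highest responder value, and the other 7 lay below every stable tumour. Fcgr1 rose in stable tumours (log2 fold change 1.74, SE 0.33, adjusted p = 0.000150) and in non-responders (1.14, SE 0.32, adjusted p = 0.0190) against controls. In responders the difference from controls was 0.56 (SE 0.30, adjusted p = 0.109). Against stable tumours Fcgr1 fell by 1.18 in responders (SE 0.28, adjusted p = 0.00446), and against non-responders the difference was -0.58 (SE 0.28, adjusted p = 0.0857). The order of the means was control, responder, non-responder and stable, and no neighbouring pair in that order was called; stable minus non-responder was 0.60 (SE 0.30, adjusted p = 0.186).

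Fcgr4 encodes an activating receptor of intermediate affinity for IgG2a, IgG2b and IgG2c that is found on monocytes, macrophages and neutrophils. Its CPM in controls 1 to 5 was 5.20, 10.6, 7.79, 8.11 and 15.1. Its lowest, median and highest CPM were 11.6, 20.7 and 47.1 among non-responders, 31.0, 47.7 and 71.8 in stable tumours and 8.80, 15.2 and 44.5 in responders. The stable group did not overlap the controls, and 6 of 8 responders lay below every stable tumour, with responders 2 and 5 inside the stable range. Fcgr4 rose in stable tumours by 2.44 (SE 0.44, adjusted p = 9.73e-05), in non-responders by 1.40 (SE 0.43, adjusted p = 0.0293) and in responders by 1.16 (SE 0.41, adjusted p = 0.0152) over controls. It fell by 1.28 in responders against stable tumours (SE 0.36, adjusted p = 0.0107). Responder minus non-responder was -0.23 (SE 0.37, adjusted p = 0.609) and stable minus non-responder 1.04 (SE 0.39, adjusted p = 0.0756), and neither was called. DESeq2 (adjusted p = 0.0384) and limma on log2(RPKM + 1) (adjusted p = 0.0380) did call the difference between stable tumours and non-responders.

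Fcgr3 encodes the widely expressed low-affinity activating receptor of mouse myeloid and NK cells. Control CPM was 37.3, 35.3, 31.4, 27.8 and 51.0 in tumours 1 to 5. Over each group the lowest, median and highest CPM were 43.1, 70.3 and 246 among non-responders, 181, 234 and 313 among stable tumours and 70.9, 93.2 and 295 in responders. All responders and all stable tumours lay above every control, and 6 of 8 responders lay below every stable tumour. Fcgr3 rose by 2.72 in stable tumours (SE 0.45, adjusted p = 3.31e-05), by 1.90 in responders (SE 0.42, adjusted p = 0.000389) and by 1.47 in non-responders (SE 0.42, adjusted p = 0.0217) against controls. From non-responders to stable tumours it rose by 1.25 (SE 0.40, adjusted p = 0.0356). Responder minus stable was -0.82 (SE 0.36, adjusted p = 0.0769) and responder minus non-responder 0.43 (SE 0.37, adjusted p = 0.334). The sum of Fcgr3 and Fcgr2b, which needs no division of shared reads, rose by 2.62 in stable tumours, 2.20 in responders and 1.36 in non-responders over controls (adjusted p = 2.94e-06, 5.62e-06 and 0.00691). It rose by 1.26 in stable tumours (adjusted p = 0.00914) and by 0.85 in responders (adjusted p = 0.0193) over non-responders, and responder minus stable was -0.41 (adjusted p = 0.249).

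Fcer1g encodes the signalling chain that the 3 activating receptors share with the IgE receptor. Control CPM was 14.5, 17.1, 17.8, 17.1 and 26.3. The lowest, median and highest CPM were 23.9, 42.5 and 94.7 among non-responders, 83.1, 97.7 and 108 in stable tumours and 34.5, 49.0 and 115 in responders. Every responder and stable tumour was above every control, and 5 of 6 non-responders were. Fcer1g rose by 2.36 in stable tumours (SE 0.33, adjusted p = 5.82e-06), 1.70 in responders (SE 0.31, adjusted p = 6.39e-05) and 1.39 among non-responders (SE 0.32, adjusted p = 0.00491) against controls, and by 0.98 in stable tumours against non-responders (SE 0.30, adjusted p = 0.0295). Responders differed from stable tumours by -0.67 (SE 0.27, adjusted p = 0.0575) and from non-responders by 0.31 (SE 0.28, adjusted p = 0.362).

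Fcgr2b encodes the inhibitory receptor. Control CPM was 31.0, 51.5, 39.6, 38.3 and 53.7. Its lowest, median and highest CPM were 39.1, 94.7 and 204 among non-responders, 222, 246 and 262 among stable tumours and 143, 217 and 347 in responders. The stable group overlapped neither controls nor non-responders, no responder overlapped the controls, and 4 of 8 responders exceeded the highest non-responder. Fcgr2b rose by 2.42 in responders (SE 0.28, adjusted p = 3.56e-07), 2.52 in stable tumours (SE 0.29, adjusted p = 9.93e-07) and 1.25 in non-responders (SE 0.28, adjusted p = 0.00371) against controls. Alone among the 6 genes it rose from non-responders to responders by this test, by 1.17 (SE 0.25, adjusted p = 0.000872). Stable tumours also stood above non-responders by 1.27 (SE 0.26, adjusted p = 0.00413), and the responder minus stable difference was -0.10 (SE 0.24, adjusted p = 0.759). For the sum with Fcgr3 the rise from non-responders to responders was 0.85, as given above.

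Fcgrt stood apart from the other genes. Its control CPM was 81.0, 72.8, 73.0, 71.0 and 84.6. Over each group the lowest, median and highest CPM were 66.2, 83.4 and 114 among non-responders, 83.6, 90.6 and 99.8 in stable tumours and 36.0, 47.6 and 102 in responders. In 7 of 8 responders it lay below every tumour of each other group, and the exception was responder 5. Fcgrt fell in responders by 0.52 against controls (SE 0.17, adjusted p = 0.0112), 0.67 against non-responders (SE 0.16, adjusted p = 0.00231) and 0.76 against stable tumours (SE 0.16, adjusted p = 0.00307). Stable and non-responder tumours differed from controls by 0.24 (SE 0.19, adjusted p = 0.324) and 0.15 (SE 0.18, adjusted p = 0.613).

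**Figure D2:**
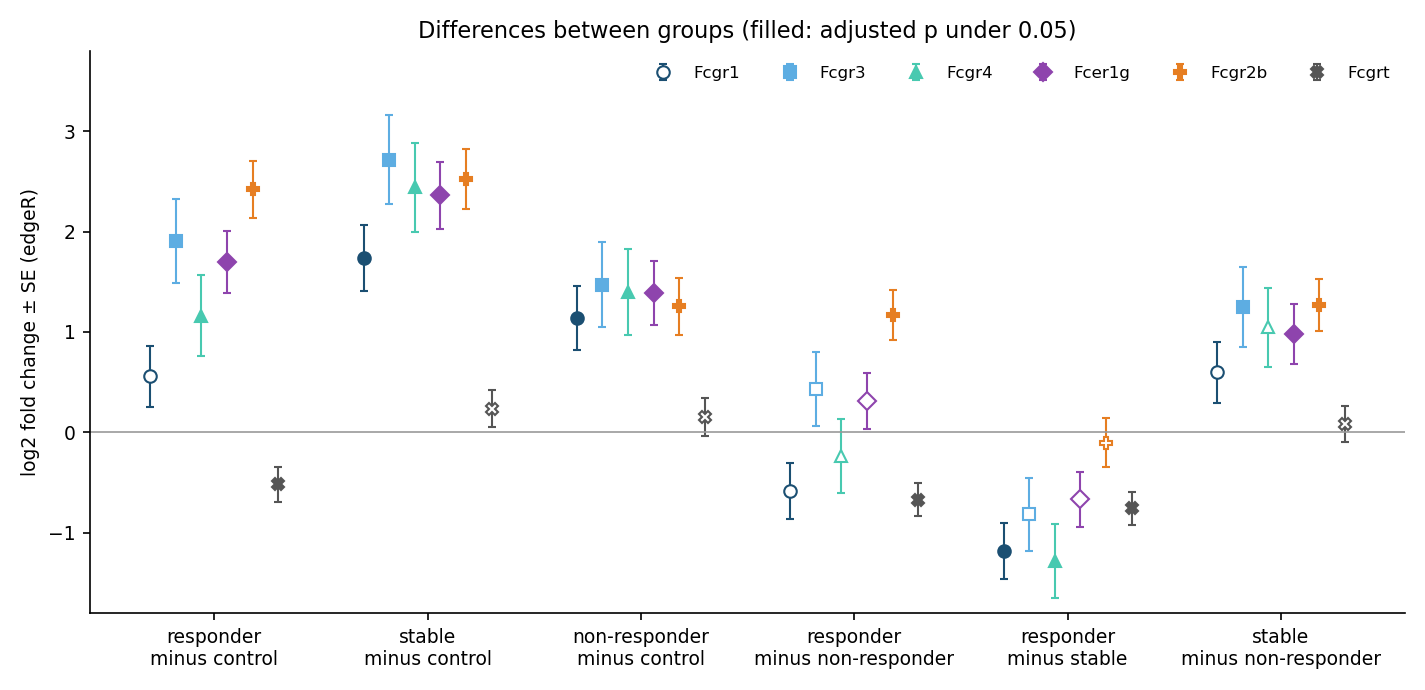
Log2 fold change of each of the 6 genes in the 6 comparisons (edgeR, bars are SE), with filled symbols under an adjusted p of 0.05. In responder minus non-responder, Fcgr2b (1.17) stands above 0 while Fcgr1 (-0.58) and Fcgr4 (-0.23) are open symbols below it.

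Counted by comparison, 5 of the 6 changed in responders against controls, 4 upward and 1 downward. Among all genes 65.0% were called in that comparison, 36.1% higher and 28.9% lower. In stable tumours against controls 5 of 6 rose, with 41.8% of all genes called and 22.2% called higher. In non-responders against controls 5 of 6 rose, with 13.9% of all genes called and 10.6% called higher. The count thus stood well above the share of all genes in the last of these and less so where most genes moved. Between outcome groups, 2 of 6 were called in responders against non-responders, 1 in each direction (48.9% of all genes called, 25.2% higher and 23.8% lower). In responders against stable tumours 3 of 6 fell (38.2% of all genes called, 17.8% lower), and in stable tumours against non-responders 3 of 6 rose (14.9% called, 7.08% higher). The share of 2 genes of 6 in responders against non-responders was not above that of all genes, and the 3 of 6 lower than in stable tumours stood above the 17.8% of all genes lower there. With the protein-coding share as covariate 0 of the 6 were called in responders against stable tumours. That fit called 0 of all genes in this comparison, so the 0 of 6 says nothing particular to these genes. The 3 comparisons with controls share the same 5 control tumours.

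Several responder results changed when the fit also held the protein-coding share, and for responder minus stable that fit called no gene at all. Fcgr1 then differed between responders and controls by 1.15 (adjusted p = 0.00415), and its difference from stable tumours was -0.62 (adjusted p = 0.387). Fcgr4 differed by -0.63 from stable tumours (adjusted p = 0.493) and by 0.39 from non-responders (adjusted p = 0.519), a change of sign. Fcgrt lost its calls, at -0.24, -0.41 and -0.49 against controls, non-responders and stable tumours (adjusted p = 0.328, 0.135 and 0.339). Fcgr2b kept its calls against controls (2.68) and non-responders (1.40, adjusted p = 0.00974). Fcgr3 and Fcer1g kept their calls against controls (2.42 and 2.14), and stood at 0.90 and 0.71 against non-responders (adjusted p = 0.138 and 0.122) and at -0.33 and -0.25 against stable tumours (adjusted p = 0.750 and 0.743). The part of library composition in these differences was not tested apart from this fit, since composition moved with the responder group.

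Leaving out 1 tumour at a time moved some calls of the activating chains. The non-responder minus control differences lost their call without control 1, 3 or 4 for Fcgr1 (1.08, 1.04 and 1.09). For Fcgr3 this held without controls 1, 3 and 4 and non-responders 4 and 6 (1.48, 1.42, 1.38, 1.38 and 0.98), and for Fcgr4 without the same tumours (1.24, 1.34, 1.35, 1.27 and 1.10). Stable minus non-responder lost its call without non-responders 1, 2, 3 and 5 and stable tumours 2, 3 and 4 for Fcgr3 (1.09 to 1.24) and for Fcer1g (0.84 to 0.98). Without responder 5, Fcgr1 fell in responders against non-responders by 0.87 (adjusted p = 0.00342) and against stable tumours by 1.47 (adjusted p = 6.67e-05), and Fcgr3 fell by 1.08 (adjusted p = 0.0134) and Fcer1g by 0.87 (adjusted p = 0.00769) against stable tumours. Fcgr3 and Fcer1g were also called in that comparison without responder 2 (-0.96 and -0.79) or non-responder 6 (-0.82 and -0.67), and Fcer1g without non-responder 3 (-0.67). Without control 5, Fcgr1 rose in responders over controls by 0.75 (adjusted p = 0.0476). Without non-responder 6, Fcgr3 rose in responders (0.92, adjusted p = 0.0293) and Fcgr4 in stable tumours (1.34, adjusted p = 0.0185) over non-responders.

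The make-up of the IgG receptor transcripts was then described per tumour, as each gene's share of the summed RPKM of Fcgr1, Fcgr3, Fcgr4 and Fcgr2b. The size of these shares depends on the authors' gene lengths, so they are compared between groups and not between genes. Fcgr2b took 31.4, 38.2, 37.9, 36.8 and 31.3% in controls 1 to 5. Its lowest, median and highest shares were 27.7, 32.5 and 40.0% among non-responders, 28.1, 35.4 and 41.1% in stable tumours and 35.0, 49.4 and 55.5% in responders. Responder 5 held the lowest responder share, and the other 7 lay above every tumour of the other groups. Fcgr1 took 8.57 ± 0.897% in controls and 8.51 ± 2.26% among non-responders but 4.81 ± 0.822% in stable tumours and 3.41 ± 0.896% in responders (SD, n = 5, 6, 6 and 8). The share of Fcgr4 ranged over 7.46 to 14.2, 10.6 to 14.3, 8.36 to 13.3 and 4.48 to 8.32% in the same order, and Fcgr3 took 44.8 ± 4.78, 45.9 ± 5.67, 49.2 ± 3.26 and 42.0 ± 5.67%. The lower share of Fcgr1 was thus shared by stable tumours and responders, and the lower share of Fcgr4 was seen in responders.

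**Figure D3:**
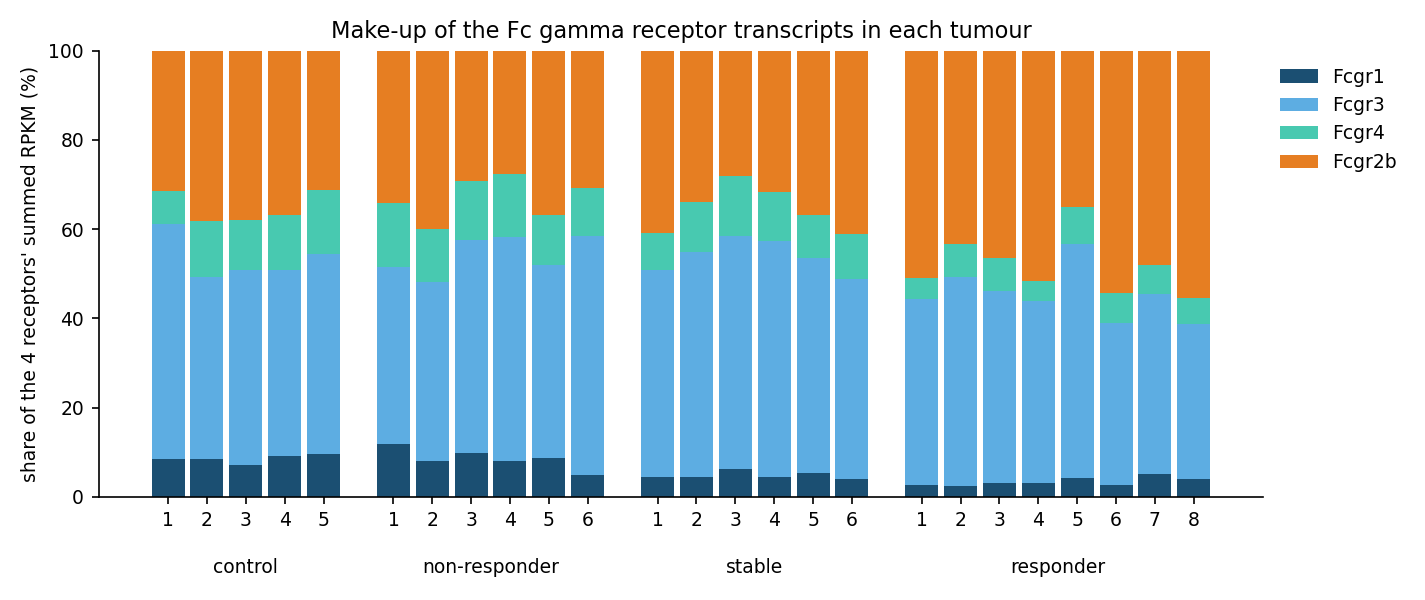
Share of Fcgr1, Fcgr3, Fcgr4 and Fcgr2b in their summed RPKM (%), 1 stacked bar per tumour, numbered by replicate within each group. Fcgr2b takes 43.3 to 55.5% in responders other than responder 5, and at most 41.1% in any tumour of the other groups.

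The balance was defined as the log2 ratio of summed Fcgr1, Fcgr3 and Fcgr4 RPKM to Fcgr2b RPKM in the same tumour. It is a score over the genes under study, so it is given with no test. In controls 1 to 5 the balance was 1.13, 0.69, 0.71, 0.78 and 1.13. The lowest, median and highest values were 0.58, 1.06 and 1.38 among non-responders, 0.52, 0.87 and 1.35 in stable tumours and -0.32, 0.03 and 0.90 in responders. On the linear scale activating transcripts were 1.87 ± 0.293 times Fcgr2b in controls, 2.07 ± 0.426 times among non-responders, 1.87 ± 0.437 times among stable tumours and 1.12 ± 0.343 times in responders (SD). In 7 of 8 responders the balance lay below every tumour of the other groups. In 4 of them, responders 1, 4, 6 and 8, Fcgr2b exceeded the activating sum in the authors' RPKM. Whether it exceeds that sum depends on the gene lengths used, so this is not read as a result. The mean balance of responders was lower by 0.78 than that of controls, by 0.91 than that of non-responders and by 0.77 than that of stable tumours. Differences among the other 3 groups, from -0.15 to 0.13, were smaller than the SD within each group, 0.22 to 0.33.

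The terms of the ratio were also read one by one. The activating sum was 29.9 ± 8.12 RPKM in controls, 80.2 ± 50.7 among non-responders, 169.7 ± 32.8 among stable tumours and 99.7 ± 53.3 in responders (SD). Fcgr2b stood at 16.0 ± 3.43, 38.2 ± 20.6, 91.4 ± 7.63 and 85.9 ± 23.9 RPKM in the same groups. The mean activating sum of responders was thus between those of non-responders and stable tumours, and the mean Fcgr2b level was near that of stable tumours.

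Responder 5 had a balance of 0.90, inside the range of the other groups, and a protein-coding share of 87.0%, also inside their range. The 7 responders with a low balance had shares of 23.8 to 74.3%, so in these data the low balance and the altered composition occurred in the same 7 libraries and cannot be told apart from each other within the responder group. The lowest protein-coding share (responder 1, 23.8%) went with a balance of -0.05 and the lowest balance (responder 8, -0.32) with a share of 67.3%. Without responder 5 the responder mean differed by -0.89 from controls, -1.03 from non-responders and -0.88 from stable tumours.

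**Figure D4:**
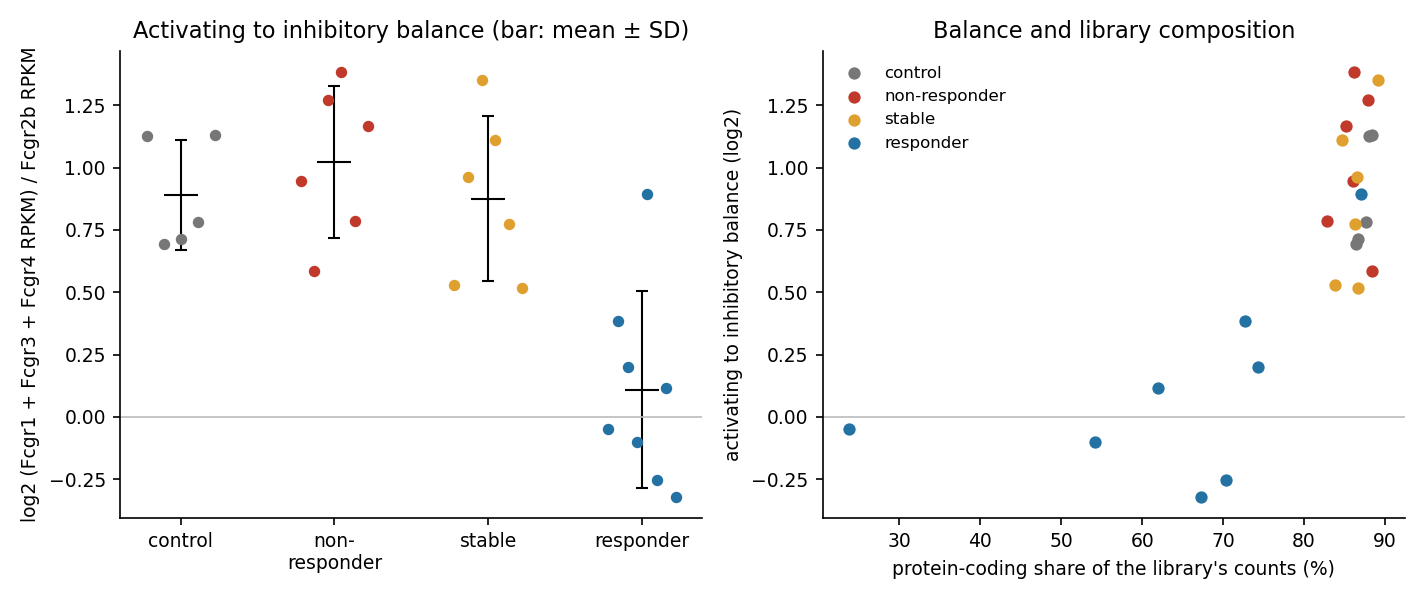
Activating to inhibitory balance (log2 RPKM ratio) by group with mean and SD (left), and against the protein-coding share of each library (%, right). The 7 responders with shares of 23.8 to 74.3% all lie at or under 0.39, and responder 5 (share 87.0%, balance 0.90) lies among the other groups.

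A ratio that depends less on the division of reads between Fcgr2b and Fcgr3 sets Fcgr1 plus Fcgr4 over Fcgr2b plus Fcgr3. With the activating gene Fcgr3 in its lower term, this ratio is not an activating to inhibitory balance. It was added after the values were seen. Its lowest, median and highest values were -2.41, -1.91 and -1.69 in controls and -2.45, -1.92 and -1.51 among non-responders (log2 RPKM). They were -2.77, -2.49 and -2.04 in stable tumours and -3.63, -3.21 and -2.79 in responders. In this form all 8 responders, responder 5 included, lay below every tumour of the other groups. Stable tumours were also lower than controls and non-responders by 0.47 and 0.54, with 5 of 6 below every control and 4 of 6 below every non-responder. In the activating to inhibitory balance itself, stable tumours differed from controls by -0.0145 and from non-responders by -0.149. Of the counts of Fcgr2b and Fcgr3 together, Fcgr2b was given 54.0 ± 5.65% in controls, 52.4 ± 7.26% among non-responders, 51.0 ± 5.83% among stable tumours and 64.9 ± 7.64% in responders (SD).

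Single ratios to Fcgr2b were tested with limma on the log2 CPM difference of every gene to Fcgr2b in the same tumour, adjusted over 18030 genes. Because Fcgr2b itself rose, 83.8% of all genes differed in their ratio to it between responders and controls, 82.3% downward, and 71.4% between responders and non-responders, 70.6% downward. Calls in those comparisons are near that background and are given as values. The same holds for ratios that do not overlap between groups, since the share of all genes whose ratios separate in this way was not counted. Between responders and stable tumours, where Fcgr2b did not pass the test, 7.93% of genes were called, 6.69% higher and 1.23% lower. There Fcgr4, Fcgr1 and Fcgr3 were lower against Fcgr2b, and 1.23% is the share of all genes lower by the same rule.

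Fcgr1 stood at -1.54, -1.91, -2.12, -1.81 and -1.47 to Fcgr2b in controls 1 to 5 (log2 CPM difference). In order, the lowest, median and highest values were -2.37, -1.76 and -1.27 among non-responders, -3.02, -2.57 and -1.83 in stable tumours and -4.18, -3.87 and -2.73 in responders. All 8 responders lay below every control and non-responder, 7 of 8 lay below every stable tumour, and 5 of 6 stable tumours lay below every control. Per length Fcgr1 was 0.247 ± 0.0431 of Fcgr2b in controls, 0.260 ± 0.0737 among non-responders, 0.140 ± 0.0441 among stable tumours and 0.0729 ± 0.0263 in responders (RPKM ratio, SD). The limma difference was -1.95 for responder minus control (SE 0.28, adjusted p = 6.65e-08), -1.94 for responder minus non-responder (SE 0.26, adjusted p = 3.50e-07) and -1.14 for responder minus stable (SE 0.26, adjusted p = 0.0140). It was -0.81 for stable minus control (SE 0.30, adjusted p = 0.0111) and -0.80 for stable minus non-responder (SE 0.28, adjusted p = 0.010002), in comparisons where 91.1% and 84.0% of all genes were called, 89.9% and 83.7% of all genes downward. Non-responder minus control was -0.01 (SE 0.30, adjusted p = 0.979), with 63.7% of all genes called.

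Fcgr4 stood at -2.55, -2.27, -2.33, -2.23 and -1.82 to Fcgr2b in controls 1 to 5. The lowest, median and highest values were -2.53, -2.02 and -1.63 among non-responders, -2.96, -2.39 and -1.62 in stable tumours and -4.41, -3.67 and -2.65 in responders. All 8 responders lay below every control and non-responder, and only responder 5 reached the stable range. The difference was -1.41 for responder minus control (SE 0.28, adjusted p = 2.32e-05), -1.59 for responder minus non-responder (SE 0.27, adjusted p = 4.81e-06) and -1.32 for responder minus stable (SE 0.27, adjusted p = 0.0103). Differences among the other groups were -0.27 to 0.18 and none was called.

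Fcgr3 to Fcgr2b was 0.26, -0.54, -0.33, -0.46 and -0.08 in controls. In order, the lowest, median and highest values were -0.68, -0.13 and 0.29 among non-responders, -0.43, -0.07 and 0.37 in stable tumours and -1.41, -1.03 and 0.08 in responders. Responder 5 was the highest responder, and 7 of 8 responders lay below every control and stable tumour. The difference was -0.67 against controls (SE 0.26, adjusted p = 0.0195), -0.76 against non-responders (SE 0.25, adjusted p = 0.00718) and -0.84 against stable tumours (SE 0.25, adjusted p = 0.0347). The last lost its call without any 1 of stable tumours 2, 3, 4 or 5 or responders 1, 4, 6, 7 or 8 (-0.86 to -0.76), and the first without control 1 (-0.55, adjusted p = 0.0706).

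Fcer1g to Fcgr2b was lower in responders by 0.80 than in controls (SE 0.23, adjusted p = 0.00183) and by 0.95 than in non-responders (SE 0.22, adjusted p = 0.000265). Against stable tumours it was -0.64 (SE 0.22, adjusted p = 0.0646; two-sided exact permutation test of this ratio alone, unadjusted p = 0.00400), and it was called without non-responder 3, non-responder 6 or responder 5 (-0.64, -0.64 and -0.74). Stable minus non-responder was -0.32 (SE 0.24, adjusted p = 0.206, and exact permutation test, unadjusted p = 0.0238). Adjusted over the 24 ratios tested by permutation, the 2 permutation p-values were 0.0107 and 0.0398. In stable tumours against non-responders 83.7% of all genes were called lower against Fcgr2b by limma, so the second is not read as a result about Fcer1g. Responder 5 had the highest value of the responders, -1.28, and the group's median was -2.09 against -1.29 in stable tumours.

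In a ratio fit that also held the protein-coding share, the responder minus stable differences were -0.78 for Fcgr1, -0.81 for Fcgr4, -0.55 for Fcgr3 and -0.43 for Fcer1g, each with an adjusted p of 1.00. Responder minus non-responder kept its call for Fcgr1 (-1.58, adjusted p = 0.000171), Fcgr4 (-1.08, adjusted p = 0.00342) and Fcer1g (-0.75, adjusted p = 0.0183) and lost it for Fcgr3 (-0.47, adjusted p = 0.176). Against controls Fcgr1 (-1.57) and Fcgr4 (-0.87) kept their calls, and Fcgr3 (-0.36, adjusted p = 0.306) and Fcer1g (-0.59, adjusted p = 0.0657) lost them. In the ratio fit without the covariate, 71.4% of all genes were called between responders and non-responders and 83.8% between responders and controls. The share of all genes called with the covariate is not given here, so these calls are not read as results about these genes. On the log2(RPKM + 1) scale, responder minus stable was -0.84 for Fcgr1 (adjusted p = 0.117) and -0.67 for Fcgr3 (adjusted p = 0.192), not called, and responder minus control was -0.52 for Fcgr3 (adjusted p = 0.0657).

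**Figure D5:**
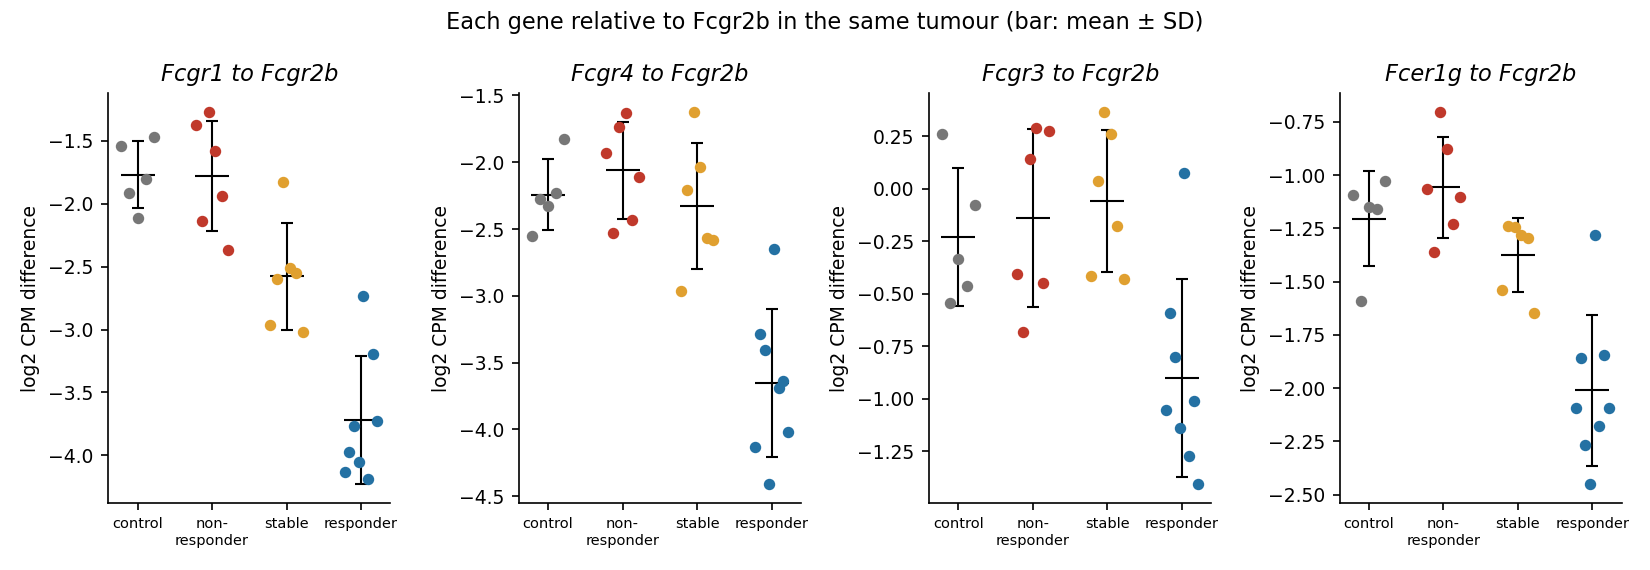
Log2 CPM difference of Fcgr1, Fcgr4, Fcgr3 and Fcer1g to Fcgr2b in the same tumour, by group, with mean and SD. For Fcgr1 and Fcgr4 all 8 responders lie below every control and non-responder, and the highest responder point in each panel is responder 5. Of all genes 82.3% were called lower against Fcgr2b in responders than in controls, and 70.6% than in non-responders. The share of all genes without overlap was not counted.

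Over the 25 tumours, Fcgr3 and Fcer1g were the pair most alike (Pearson r of log2 CPM 0.977), followed by Fcgr1 and Fcgr4 (0.940). Fcgr2b correlated at 0.907 with Fcer1g and 0.890 with Fcgr3, but at 0.725 with Fcgr4 and 0.551 with Fcgr1. Fcgrt and Fcgr2b stood at -0.138. These values share library, group and composition and are given as descriptions. By the same measure the genes most like Fcgr1 were Plac8 (0.959), Ms4a4d, Hacd4, Erap1 and Trex1, a set in which Trex1 is a DNA exonuclease and Erap1 trims peptides for MHC class I. Those most like Fcgr4 were Ccl8 (0.962), a monocyte chemokine, and Ly6a, Glipr2, Cfp and Prcp. Fcgr3 was nearest to Cd53 (0.987), Tyrobp, the other main ITAM adaptor, Sqor, H2-D1 and Ctsc. Fcer1g was nearest to Lcp1 (0.991), C1ra, Cd53, Cd86 and AW112010. Fcgr2b was nearest to Klrb1b (0.980), Gpr35, Il7r, Tnfaip8l3 and Ptger2, and Fcgrt to Tgfbr2 (0.914), Rcn3, Gna12, Xxylt1 and Naalad2. No gene but Cd53 appeared in more than 1 of these 6 sets of 5.

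Markers of cells that carry Fc receptors moved with the groups. The summed CPM of 10 monocyte and macrophage markers ranged from 534 to 1005 in controls, 903 to 7809 among non-responders, 5709 to 8956 among stable tumours and 2435 to 9773 in responders, and 10 of 10 rose in responders over controls. Between responders and stable tumours, where Fcgr1 and Fcgr4 fell, 3 of these 10 were lower and 1 higher by edgeR, with a median log2 difference of -0.67 against 0.01 over all genes. Of all genes 38.2% were called in that comparison, 17.8% lower. With the protein-coding share as covariate 0 of the 10, and 0 of all genes, were called there and the median of the 10 was -0.30. The 6 NK cell markers summed to 5.28 to 16.2 CPM in controls and 36.6 to 94.6 in responders, with 5 of 6 higher. For neutrophils, 7 of 8 markers were tested and 7 rose, from sums of 5.86 to 12.2 CPM in controls to 34.2 to 96.2 in responders. The 7 B cell markers, in cells that carry Fcgr2b alone among these receptors, summed to 1.62 to 4.14 CPM in controls, 3.31 to 15.1 among non-responders, 8.57 to 16.9 in stable tumours and 1.56 to 33.1 in responders. Of these, 7 of 7 rose in responders over controls, and 0 of 7 were called between responders and stable tumours by edgeR, with 0 at an unadjusted p under 0.05 and 0 called by DESeq2. Mast cell markers, 7 in all, summed to 40.5 to 112 CPM in controls and 9.78 to 52.9 in responders, with 4 of 7 lower and 1 of 7 with the covariate. Dendritic cell markers were higher in 5 of 6 cases in responders over controls, T cell markers in 6 of 6, plasma cell markers in 4 of 4 and eosinophil markers in 3 of 4 tested, and endothelial markers were lower in 5 of 6, or 2 of 6 with the covariate. Beside the counts of every marker list, 36.1% of all genes were higher and 28.9% lower in responders than in controls. The share called with the covariate in that comparison is not given here, so its counts are not read as results about these markers. None of the marker genes was at 0 in all tumours, and Ly6g of the neutrophil list and Epx of the eosinophil list did not pass the filter. All 7 melanocytic markers fell, from sums of 10504 to 17110 CPM in controls to sums of 303 to 722 in responders. The part of cell make-up in the receptor results was not tested.

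The receptors were also set over the sum of the macrophage markers. Lyz2, the lysozyme of myeloid cells, made up 44.9 ± 2.43% of that sum in controls, 61.1 ± 12.5% among non-responders, 77.9 ± 2.42% among stable tumours and 74.6 ± 5.58% in responders, so the ratio is given with and without it (SD throughout; the form without Lyz2 was added after the values were seen). Over all 10 markers the log2 CPM ratio of Fcgr2b was -4.01 ± 0.217 in controls, -4.87 ± 0.324 among stable tumours and -4.20 ± 0.427 in responders. Without Lyz2 it was -3.15 ± 0.182, -2.68 ± 0.316 and -2.19 ± 0.309, so the order of controls against the other groups depended on that 1 marker. Fcgr1 stood at -5.79 ± 0.229, -7.45 ± 0.263 and -7.92 ± 0.394 over all 10, and at -4.93 ± 0.228, -5.26 ± 0.139 and -5.92 ± 0.313 without Lyz2. Fcgr4 stood at -6.27 ± 0.324, -7.20 ± 0.255 and -7.86 ± 0.436 over all 10, and at -5.40 ± 0.325, -5.01 ± 0.254 and -5.85 ± 0.490 without Lyz2. Fcgr3 stood at -4.24, -4.93 and -5.10 over all 10, and at -3.38, -2.74 and -3.09 without Lyz2 (means). Fcer1g stood at -5.22, -6.24 and -6.21, and at -4.36, -4.06 and -4.20 (means). In both forms the mean responder ratios of Fcgr1 and Fcgr4 were the lowest of these 3 groups. That of Fcgr2b was higher in responders than in stable tumours. Fcgr3 was lowest in responders only with Lyz2, and Fcer1g in neither form. These ratios carry no test.

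Genes of the pathway downstream were read from lists. Of 20 genes of Fc receptor signalling, 18 rose among non-responders, 19 among stable tumours and 19 in responders against controls, with a median log2 fold change in responders of 2.01 against 0.16 over all genes. The shares of all genes higher over controls were 10.6, 22.2 and 36.1% in the same order. Cybb, the oxidase subunit of the phagocyte burst, rose in responders by 3.14 (adjusted p = 9.38e-06) and Prkcd, a kinase downstream of these receptors, by 2.43 (adjusted p = 2.70e-07), while the kinase Src was at 0.17 (adjusted p = 0.210). Between responders and non-responders 13 of 20 were higher, with a median of 0.69 against 0.05 over all genes, and 3 of 20 with the protein-coding share as covariate. Without the covariate 25.2% of all genes were higher. The covariate count is not set beside a share of all genes here and is not read as a result about this list. Between responders and stable tumours 0 of 20 were higher and 2 lower, with a median of -0.26 against 0.01 over all genes. Of all genes 17.8% were lower in that comparison. With the covariate 0 of the 20, and 0 of all genes, were called there.

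Of 9 genes of inhibitory signalling, the phosphatases and adaptors that act below the ITIM, 5 rose and 1 fell in responders over controls and 4 rose and 1 fell over non-responders. The list's median was 0.52 and 0.20 in these comparisons. These counts were close to the shares of all genes, 65.0% called over controls and 48.9% over non-responders, and with the covariate 1 rose and 1 fell over non-responders. Cbl, a ubiquitin ligase, rose by 1.13 in responders over controls (adjusted p = 0.000269), Inppl1, the phosphatase SHIP2, by 0.41 (adjusted p = 0.00114; 0.27 with the covariate, adjusted p = 0.0717), and Ptpn11, the phosphatase SHP2, fell by 0.64 (adjusted p = 1.74e-06). Of 11 tested genes of other activating adaptors and receptors, 11 rose in responders and stable tumours and 9 in non-responders over controls. The shares of all genes higher over controls were 36.1, 22.2 and 10.6% in the same order. Tyrobp, the adaptor DAP12, rose by 1.59 in responders (adjusted p = 0.00113), and the C-type lectin receptors Clec7a and Clec4n rose by 3.95 (adjusted p = 2.27e-05) and 3.24 (adjusted p = 5.76e-05). Between responders and stable tumours 0 of these 11 were called by edgeR, with 2 at an unadjusted p under 0.05 and 1 called lower by DESeq2.

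Of 13 genes of other ITIM receptors and relatives, Lilr4b included, 6 rose and 0 fell in responders against non-responders, with a median of 0.53. Against stable tumours 0 rose and 3 fell, with a median of -0.15. Of all genes 25.2% were higher in responders than in non-responders and 17.8% lower than in stable tumours. With the covariate 4 rose against non-responders and 0 were called against stable tumours, where that fit called 0 of all genes. Lilrb4a, an inhibitory receptor of the leukocyte immunoglobulin-like family, and Lilr4b, its relative whose tail lacks the inhibitory motif, were higher in responders than in non-responders by 1.46 (adjusted p = 0.000530) and 1.37 (adjusted p = 0.000734). Their responder minus stable differences were 0.10 (adjusted p = 0.789) and -0.01 (adjusted p = 0.987), as with Fcgr2b. Sirpa, the receptor of the signal that protects cells from phagocytosis, was higher in responders than non-responders by 0.53 (adjusted p = 0.0366), and by 0.63 with the covariate (adjusted p = 0.101). Lilrb4a and Lilr4b are close copies, so reads could be divided between them.

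Of 15 targets of interferon gamma, a cytokine known to induce Fcgr1, 15 rose against controls in each of the 3 outcome groups, with medians of 2.01 among non-responders, 2.74 among stable tumours and 2.23 in responders. The shares of all genes higher over controls were 10.6, 22.2 and 36.1% in the same order. Between responders and stable tumours 7 of 15 fell and 0 rose, with a median of -0.76 against 0.01 over all genes, of which 17.8% were lower. With the protein-coding share as covariate 0 of the 15, and 0 of all genes, were called there, and the median of the 15 was -0.43. Gbp2, a guanylate-binding protein, differed by -0.98 between responders and stable tumours (adjusted p = 0.0385), and by -0.80 with the covariate (adjusted p = 0.467). For Iigp1, a GTPase of the same response, the difference was -0.76 (adjusted p = 0.0643). The differences of Fcgr1 and Fcgr4 in the same comparison were -1.18 and -1.28, and they too were not called with the covariate. Between responders and non-responders 3 of 15 rose and 0 fell, with a median of 0.01, where 25.2% of all genes were higher. With the covariate 0 of the 15 were called there.

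Of 11 targets of IL-4 and IL-10 in macrophages, cytokines known to raise Fcgr2b or to mark other states of macrophages, 5 rose and 2 fell in responders against non-responders, with a median of 0.71, and 2 rose and 0 fell with the covariate. Without the covariate 25.2% of all genes were higher and 23.8% lower in that comparison. Against stable tumours 0 of the 11 rose and 3 fell in responders, with a median of -0.25, where 17.8% of all genes were lower. Over controls 9 rose in stable tumours, with a median of 2.22, and 7 rose and 2 fell in responders, with a median of 1.53. Of all genes 22.2% were higher in stable tumours over controls, and 36.1% were higher and 28.9% lower in responders. Arg1, the arginase of such macrophages, rose by 3.91 in responders over controls (adjusted p = 0.00123), and its responder minus non-responder difference was 1.70 (adjusted p = 0.0795). Chil3, a chitinase-like protein, exceeded its non-responder level in responders by 3.97 (adjusted p = 0.0207), and by 3.55 with the covariate (adjusted p = 0.102). Mrc1, the mannose receptor, fell in responders against stable tumours by 0.94 (adjusted p = 0.00787), a call lost with the covariate (-0.34, adjusted p = 0.510).

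Of 10 tested other Fc receptors, 6 rose and 2 fell in responders over controls, where 36.1% of all genes were higher and 28.9% lower. Trim21, a cytosolic receptor of antibody, rose by 1.19 (adjusted p = 2.31e-05), Fcrls, a receptor-like gene of tissue macrophages, fell by 2.75 (adjusted p = 1.04e-05), and Fcgbp, an IgG-binding mucus protein, was at 2.41 (adjusted p = 0.224). The ligands' own genes, the 4 IgG constant genes, rose in responders and stable tumours over controls in 4 of 4 cases, and 1 of 4 rose in non-responders. The shares of all genes higher over controls were 36.1, 22.2 and 10.6% in the same order. Ighg1 rose by 7.20 (adjusted p = 0.00100), Ighg2b by 4.42 (adjusted p = 0.00213) and Ighg2c by 3.59 (adjusted p = 0.0173) in responders over controls, and 0 of the 4 were called between outcome groups by edgeR or DESeq2, with 1 at an unadjusted p under 0.05 in edgeR, in stable tumours against non-responders. With the covariate 1 of the 4 rose in responders over non-responders. Their summed CPM ranged from 0.333 to 24.3 in controls and from 4.67 to 776 in responders. These are transcripts of the host's antibody-secreting cells and do not measure the antibody that was given.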

How the data were processed

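RNA from 25 tumours was processed with STAR 2.5.1, RSEM 1.2.22, Trimmomatic and bcl2fastq 2.17 on build mm10, per the submitters' processing notes. The labels name a stranded total RNA kit but polyA RNA as the molecule, and the strand setting of the counting is not stated there. The authors deposited estimated counts per gene (RSEM expected counts, not normalized) for 55450 genes. Of these values 5.64% were not whole, and all were rounded. They also deposited RPKM values for 19522 symbols, with their gene lengths not given. Tests used edgeR 4.0.16 (filterByExpr, TMM, robust quasi-likelihood over all 25 tumours and 4 group means, Benjamini-Hochberg) and, for ratios to Fcgr2b, limma 3.58.1 with a prior count of 2. All tests are two-sided. The edgeR test and the limma test of ratios were also run on simulated data, for responder minus non-responder only. Those data held Fcgr2b unchanged and no shift in library composition, and the other tests were not simulated. Alternatives included DESeq2 1.42.0, RLE factors, other filters, a 2-fold requirement, 2 groups only, limma on log2(RPKM + 1), the protein-coding share as covariate and leaving out each tumour. No replicate pair was a duplicate (smallest chi-square per gene 17.1). Members and lists were chosen with earlier results of these data known. Named genes were the 6, the 3 with the highest mean CPM of each list and the 5 most alike to each member, at a mean of at least 1 CPM; predicted genes, receptor segments and pseudogenes were left out. The values of 1 gene that this rule names are not reported here. Marker lists were monocyte and macrophage, neutrophil, NK, B, plasma, dendritic, mast, eosinophil, T, endothelial and melanocytic; each list's genes were counted as called or not.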

Additional observations from a re-analysis of the deposited data

Results flagged for a closer look

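In 4 of 48 groups of values, 1 tumour lay far from the others of its group by Dixon's criterion, and chance flags about 1 in 20 groups. Responder 5 was flagged for Fcgr1, at 42.2 CPM, and for Fcgrt, at 102 CPM, both high for that group. Control 5 was flagged for Fcer1g, at 26.3 CPM, the highest control. Control 2 was flagged for the ratio of Fcer1g to Fcgr2b, at -1.59 (log2 CPM difference), the lowest control.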

How the results depend on the processing

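No paired analysis was possible because the labels give no replicate numbers that the groups share. Genes called at a required 2-fold change numbered 3455, 2034 and 210 against controls (responders, stable, non-responders), 326 for responder minus non-responder, 24 for stable minus non-responder and 0 for responder minus stable (edgeR; 1378 at an unadjusted p under 0.05, 7355 by DESeq2 without that requirement). With the protein-coding share as covariate 1810 genes were called for responder minus non-responder and 0 for responder minus stable (2296 unadjusted); with only the 2 groups, 1559 for non-responder minus control. On log2(RPKM + 1) that comparison split 1297 higher to 882 lower, against 1907 to 593. The balance with the mean of log2 RPKM was -1.22 against controls and -1.35 against non-responders in responders. With Fcgr1 alone it was -1.81 and -1.85, and -0.85 and -0.89 in stable tumours. With Fcgr4 alone it was -1.29, -1.52 and, against stable tumours, -1.17. The ratio of Fcgr1 and Fcgr4 to Fcgr2b plus Fcgr3, which is not such a balance, differed by -1.21 and -1.29, and by -0.47 and -0.54 in stable tumours. Directions reversed with the covariate for Fcgr4, responder minus non-responder (0.39), Fcgr2b, responder minus stable (0.14), and Fcgr1 to Fcgr2b, non-responder minus control (0.012), all uncalled before and after. Leaving out 1 tumour, uncalled values changed sign for Fcgr4, responder minus non-responder (-0.49 to 0.060), Fcgr1 to Fcgr2b, non-responder minus control (-0.11 to 0.11), Fcgr3 to Fcgr2b, stable minus non-responder (-0.030 to 0.16), and Fcgr4 to Fcgr2b, stable minus control (-0.23 to 0.039). Genes called then ranged from 1570 to 4237 for non-responder minus control and from 1470 to 3804 for stable minus non-responder. The cause was not tested. At a required 2-fold change 15 of 36 gene results lost their call; without a low-count filter 6 did, and with only the 2 groups 3 did and 1 was gained. DESeq2 gained 2, and limma on log2(RPKM + 1) and the stricter filter 1 each; RLE factors and protein-coding genes only changed none of 36. Exact permutation tests were run for the 24 ratios to Fcgr2b, and adjusted over those 24 they left 22 results the same and gained 2 calls.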
